A study of Rattus norvegicus with 4 samples.

Results

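Voltage-gated and potassium channel genes were described in PC12 cells that carried a MAX expression plasmid, against PC12 cells that carried an empty vector. The members were the rat genes whose symbol starts with Kcn (potassium channel subunits), with Scn and a digit (sodium channel subunits) or with Cacn (calcium channel subunits). A gene entered when the scanner marked at least 2 of the 4 arrays as well above background for a probe named through its RefSeq accession. Of 137 such symbols in the RefSeq gene table, 109 had a named probe, and 54 of these passed the background filter, out of 25356 genes tested in the series. The rule used no difference between the groups, but it left out 55 named genes that were too dim, and those are accounted for after the tested genes.

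PC12 is a rat line grown from a pheochromocytoma, a tumour of the chromaffin cells that make catecholamines in the adrenal medulla, and is known to lack a functional MAX, the protein with which MYC pairs to bind DNA. The MAX vector group was 1 line transfected with a plasmid that codes for MAX, and the empty vector group was 1 line transfected with the vector alone. Both lines were nucleofected and selected with E418, as the labels spell it, and each was sampled at passages 8 and 13, so every group has 2 arrays, read in 1 colour. The promoter of the plasmid and the number of clones in each line are not given in the sources used here, and the p-values below reflect how far passages of 1 line differ, not independent transfections.

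In excitable cells such as chromaffin cells, voltage-gated sodium and calcium channels carry the inward current of the action potential, and the calcium that enters triggers the release of catecholamines. Potassium channels carry the outward current that sets the resting potential, ends the action potential and limits how often a cell fires. A voltage-gated channel is built from a pore-forming subunit and auxiliary subunits that change its gating or its number at the membrane. Inward rectifier and tandem-pore-domain potassium channels are formed by other pore subunits that lack the usual voltage sensor and mainly act near the resting potential.

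A value is the log2 processed signal of a probe minus the 75th percentile of its array, so 0 is the level of that percentile and a difference of 1 is a doubling. Levels of different probes are not compared. The share of probes well above background was 64.5% and 69.6% on the MAX vector arrays and 71.6% and 68.9% on the empty vector arrays. The rat Max probe was at -7.61 and -7.94 in MAX vector cells and at -8.36 and -8.07 in empty vector cells, well above background on none of the 4 arrays, and whether it lies within the sequence of the plasmid was not analysed here. Of 12 chromaffin markers 11 had a probe and all 11 were tested; 8 were well above background on all 4 arrays, and Dbh, Slc18a1 and Slc6a2 on 3. The summed signals of fibroblast and Schwann cell markers overlapped between the groups. Fibroblast markers were at 13520% and 14448% of the 75th percentile on the MAX vector arrays and 12750% and 14100% on the empty vector arrays. That sum mostly follows Col3a1, at 7.07 and 7.16 in MAX vector cells, against 6.98 and 7.12 in empty vector cells. Of the other fibroblast markers, Dcn was higher and Lum lower at an unadjusted p under 0.05 in limma, both without overlap. Marker lists of some other cell types differed between the groups: the summed signal of 5 epithelial markers was 1423% and 1533% of the 75th percentile on the MAX vector arrays and 721.1% and 733.3% on the empty vector arrays, and that of 8 neuronal markers was 712.7% and 740.0% on the MAX vector arrays and 1543% and 1592% on the empty vector arrays. Of those lists, 5 of 5 epithelial markers were higher and 7 of 8 neuronal markers lower at an unadjusted p under 0.05. Among all genes tested, 7.93% were higher and 8.21% lower at that p in limma. Past the adjusted threshold in limma, 1 epithelial marker was higher (Krt19, adjusted p = 0.0263) and 1 neuronal marker lower (Nefm, adjusted p = 0.0197). The neuronal marker that was not lower, Snap25, went the other way. It was at -5.20 and -4.91 in MAX vector cells, against -8.04 and -7.82 in empty vector cells, where it was at background. Snap25 was at least 2.37-fold higher (adjusted p = 0.0244 in limma). However, Snap25 entered the test through the MAX vector arrays alone, and its p rests on empty vector signals at background. The summed signal of 5 macrophage markers with a probe was 909.2% and 882.7% on the MAX vector arrays and 486.2% and 559.5% on the empty vector arrays. That sum mostly follows Cd14, at 3.07 and 2.94 in MAX vector cells, against 2.08 and 2.29 in empty vector cells. Csf1r and Cd68 had overlapping groups, and 2 markers were higher at an unadjusted p under 0.05. The summed signal of the 11 chromaffin markers was 1166% and 1155% on the MAX vector arrays and 2022% and 2033% on the empty vector arrays. That sum mostly follows Ddc, at 2.95 and 2.94 in MAX vector cells, against 4.03 and 4.04 in empty vector cells. Th was higher and Ddc lower past the threshold, and 3 chromaffin markers were lower and 1 higher at an unadjusted p under 0.05. Endothelial markers summed to 7.62% and 11.0% on the MAX vector arrays and 2.65% and 2.80% on the empty vector arrays. Of 2 with a probe, 1 was tested, and it was higher at an unadjusted p under 0.05. Adrenal cortex markers summed to 22.0% and 35.3% on the MAX vector arrays and 21.5% and 21.7% on the empty vector arrays. Of 4 tested, 1 was higher at that p. The part of these markers in the channel results was not tested. In bulk RNA, fewer cells of a type and less RNA per cell cannot be told apart.

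Of the 54 tested channel genes, 3 rose in MAX vector cells and 0 fell at an adjusted p of 0.05 in limma, which is 5.56% of them. Across all genes tested, 0.84% passed in either direction, 0.576% higher and 0.264% lower. The 3 were Kcnj16, Kcnmb2 and Kcnk1, all of them potassium channel genes, and Kcnj16 was at background in empty vector cells. At an unadjusted p under 0.05, 9 channel genes were higher and 8 lower (16.7% and 14.8% of them), where 7.93% of all genes were higher and 8.21% lower at that p, 16.1% together. The arrays of the 2 groups did not overlap for 15 channel genes with higher and 16 with lower values in MAX vector cells, which is 27.8% and 29.6% of them. Among all genes 24.2% did so higher and 26.0% lower, 50.2% together, so the share of channel genes, 57.4%, lay near the background. A log2 fold change of at least 1 either way was found for 6 channel genes, or 11.1%, against 3.42% of all genes. With normexp, a background correction that adds an offset of 50 signal units, 5 channel genes passed higher and 1 lower, or 11.1%, where 3.13% of all genes passed, 1.69% higher and 1.44% lower. The median log2 fold change (MAX vector minus empty vector) was -0.05 over the 54 channel genes and -0.02 over all genes. Each ± below gives the SE of such a difference, with 2 arrays per group.

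**Figure D1:**
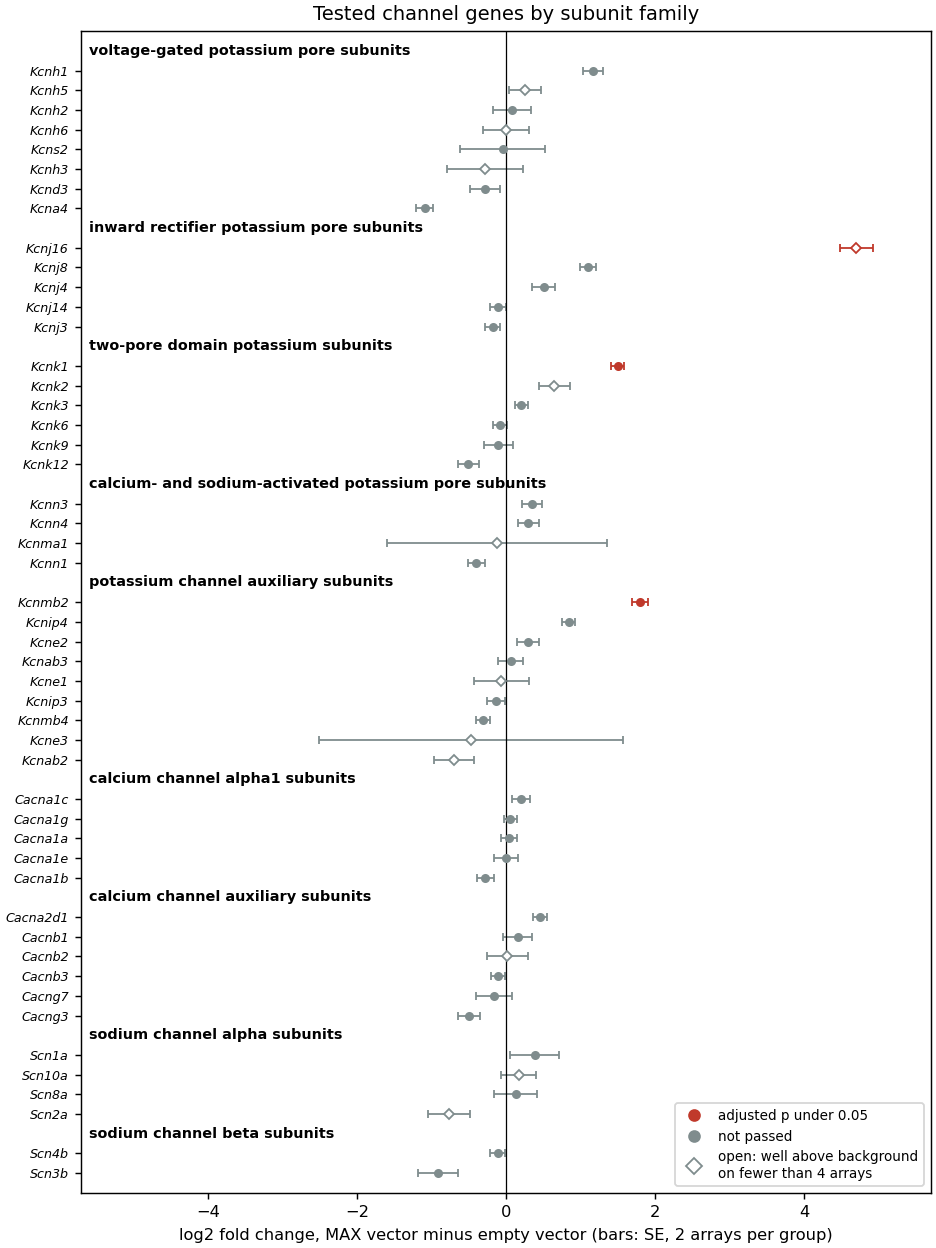
Log2 fold change (x axis, MAX vector minus empty vector) of 49 of the 54 tested channel genes, grouped by subunit family down the page, with bars for the SE from 2 arrays per group; open diamonds mark genes well above background on fewer than 4 arrays. Kcnj16, Kcnmb2 and Kcnk1, in red, are the genes that passed, and the widest bars belong to Kcne3 and Kcnma1.

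The inward rectifier subunits held the member with the largest difference. Kcnj16 encodes a pH-sensitive subunit that is known to form channels together with the products of Kcnj10 or Kcnj15. It was at -3.61 and -3.36 in MAX vector cells, against -8.45 and -7.93 in empty vector cells. In processed signal units these were 48.2 and 64.8 on the MAX vector arrays and 2.0 and 2.51 on the empty vector arrays, where the probe was not well above background. Kcnj16 therefore has only a lower bound: it was at least 7.02-fold higher in MAX vector cells (adjusted p = 0.0197 in limma), with each empty vector array set to its dimmest signal well above background or to the signal of Kcnj16, whichever was larger. Kcnj16 entered the test through the MAX vector arrays alone, and its p rests on empty vector signals at background, whereas Kcnmb2 and Kcnk1, the other 2 calls, were well above background on all 4 arrays. With normexp its log2 fold change was 0.91 (adjusted p = 0.000704), below that bound. Its partner genes Kcnj10 and Kcnj15 were well above background on none of the 4 arrays.

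Kcnj16 and Kcnj2, another inward rectifier gene, lie next to each other in the RefSeq annotation, and Map2k6, a MAP kinase kinase gene, is the neighbour on the other side of Kcnj16. Map2k6 was at -1.30 and -0.96 in MAX vector cells, against -2.97 and -2.81 in empty vector cells, and rose as well (log2 fold change 1.76 ± 0.16, adjusted p = 0.0477). Kcnj2 was well above background on none of the 4 arrays. Among the 15 channel genes shown by name with an unadjusted p under 0.05, Kcnj16 was the only one with a neighbour that was tested and passed, but most of the neighbouring genes had no named probe or lay below the filter.

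Kcnj8 encodes the pore of an ATP-sensitive potassium channel, whose sulfonylurea receptor subunit is encoded by the neighbouring gene Abcc9. Kcnj8 was at 0.88 and 0.90 in MAX vector cells, against -0.11 and -0.31 in empty vector cells, so both MAX vector arrays lay above both empty vector arrays. Its log2 fold change of 1.10 ± 0.11 missed the threshold (adjusted p = 0.0549), and with normexp it was 0.98 and passed (adjusted p = 0.000693). Abcc9 was at -0.87 and -1.65 in MAX vector cells, against -1.67 and -2.47 in empty vector cells, a log2 fold change of 0.81 ± 0.41 with a 95% interval of -0.32 to 1.94 (adjusted p = 0.427). The arrays of each group differed by about as much as the groups did. Kcnj4, which encodes a strongly rectifying subunit, was at -5.07 and -5.20 in MAX vector cells, against -5.82 and -5.48 in empty vector cells (0.51 ± 0.15, adjusted p = 0.258). With normexp Kcnj4 had 0.08.

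Kcnj3 encodes a G protein-gated subunit, and its probes did not give 1 answer. The probe used, that with the highest mean, was at 0.72 and 0.82 in MAX vector cells, against 1.0 and 0.90 in empty vector cells (log2 fold change -0.18 ± 0.10, adjusted p = 0.454). A second probe for the same RefSeq record was at -3.38 and -3.60 in MAX vector cells, against -5.42 and -5.31 in empty vector cells, and was well above background on all 4 arrays. Tested by itself among 28564 probes, the second probe differed by 1.88 ± 0.12 (adjusted p = 0.029). Another probe of the gene stayed at background on all 4 arrays. Which transcript region each probe reads was not analysed here, so no direction is given for Kcnj3. Kcnj14, another strong rectifier gene, had overlapping groups and a log2 fold change of -0.10 ± 0.11.

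Among the tandem-pore-domain subunits, which carry background potassium current, 1 of 6 tested genes rose and 5 did not pass. Kcnk1, which encodes TWIK-1, was at -4.29 and -4.21 in MAX vector cells, against -5.78 and -5.71 in empty vector cells, and was well above background on all 4 arrays. It was 2.82-fold higher (log2 fold change 1.497 ± 0.09, 95% interval 1.24 to 1.75, adjusted p = 0.0283). Its signals were low, at 30.2 and 36.0 units on the MAX vector arrays and 12.7 and 11.7 units on the empty vector arrays, and with normexp the log2 fold change was 0.48 and the call was lost (adjusted p = 0.0597).

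Kcnk2, which encodes the stretch-sensitive TREK-1, was at -5.54 and -5.46 in MAX vector cells, against -5.89 and -6.41 in empty vector cells, where 1 of 2 arrays was well above background. It did not pass (0.65 ± 0.21, adjusted p = 0.27). Kcnk12 was at -2.30 and -2.30 in MAX vector cells, against -1.96 and -1.64 in empty vector cells (-0.51 ± 0.14, adjusted p = 0.237). Kcnk3, which encodes the acid-sensitive TASK-1 known from chromaffin cells, was at -5.35 and -5.30 in MAX vector cells, against -5.53 and -5.53 in empty vector cells. The difference of 0.20 ± 0.09 had a 95% interval of -0.03 to 0.44 and did not pass (adjusted p = 0.361). Kcnk6 differed by -0.09 ± 0.10 and its second tested probe by -0.11, and Kcnk9 by -0.10 ± 0.19, with overlapping groups for both genes.

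Of 11 tested pore subunits of voltage-gated potassium channels, 0 passed in limma, while 1 was higher and 2 were lower at an unadjusted p under 0.05. Kcnh1 encodes an ether-a-go-go channel, known for its expression in tumours. It was at -1.39 and -1.53 in MAX vector cells, against -2.50 and -2.76 in empty vector cells, with a log2 fold change of 1.17 ± 0.13 (adjusted p = 0.0682). Kcna4, which encodes a rapidly inactivating A-type channel, had the lowest log2 fold change of all 54 channel genes: it was at -3.73 and -3.88 in MAX vector cells, against -2.63 and -2.79 in empty vector cells (-1.09 ± 0.11, adjusted p = 0.0591). In both genes the groups lay further apart than the arrays of a group. With normexp both passed, Kcnh1 at 0.85 (adjusted p = 0.00175) and Kcna4 at -0.53 (adjusted p = 0.0293).

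Kcnh2, which encodes the ERG channel, was at -0.59 and 0.09 in MAX vector cells, against -0.36 and -0.29 in empty vector cells. The empty vector arrays lay between the MAX vector arrays. Kcns2, an electrically silent modifier of other voltage-gated subunits, was at -3.84 and -2.25 in MAX vector cells, against -3.05 and -2.95 in empty vector cells (-0.04 ± 0.57).

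Of 4 tested pore subunits of calcium-activated potassium channels, 0 passed in limma, while Kcnn1 alone, 1 gene, reached an unadjusted p under 0.05. Kcnma1 encodes the pore of the large-conductance BK channel, which opens with calcium and depolarization and shapes firing in chromaffin cells. Its probe was at -4.07 and -8.18 in MAX vector cells, against -6.28 and -5.74 in empty vector cells. The MAX vector arrays lay on both sides of the empty vector arrays, with 1 of the 2 well above background, so the log2 fold change of -0.12 has a 95% interval of -4.25 to 4.01 and says little about the gene. Without MAX vector replicate 1 it was -2.18 and without MAX vector replicate 2 it was 1.93.

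The small-conductance channel genes lay on both sides of 0. Kcnn1 was at -3.50 and -3.38 in MAX vector cells, against -2.94 and -3.14 in empty vector cells (-0.40 ± 0.12, adjusted p = 0.252). Kcnn3 was at -4.01 and -3.81 in MAX vector cells, against -4.37 and -4.15 in empty vector cells (0.35 ± 0.13, adjusted p = 0.326). Kcnn4, which encodes the intermediate-conductance channel, was at 1.82 and 1.71 in MAX vector cells, against 1.62 and 1.31 in empty vector cells (0.30 ± 0.14, adjusted p = 0.412). For these 3 genes the groups did not overlap and the test did not pass.

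**Figure D2:**
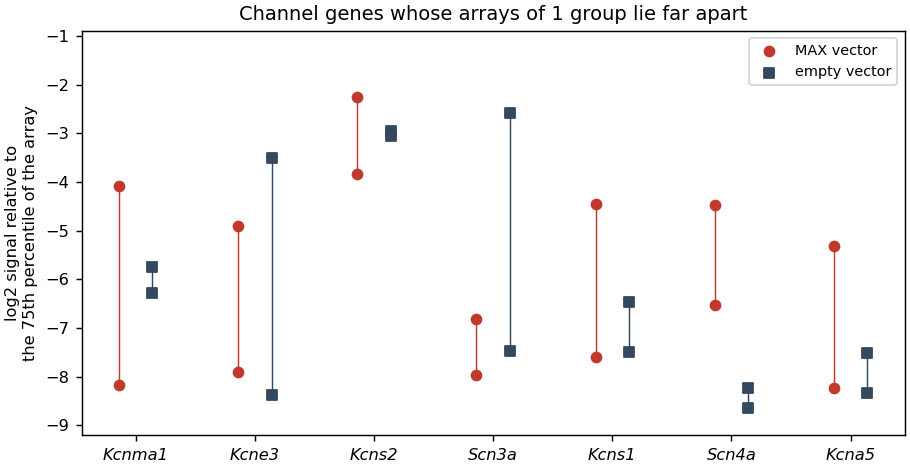
Log2 signal relative to the 75th percentile of the array (y axis) for 7 channel genes, chosen after their values were seen because the arrays of 1 group lie far apart, with red circles for the MAX vector arrays and dark squares for the empty vector arrays. Kcnma1 spans -4.07 to -8.18 in MAX vector cells and Kcne3 spans -3.50 to -8.37 in empty vector cells.

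Among the auxiliary subunits of potassium channels, 1 of 9 tested genes rose and 8 did not pass. Kcnmb2 encodes a BK channel subunit that is known to give the channel an inactivating gate, a form of BK current described in rat chromaffin cells. It was at -2.53 and -2.54 in MAX vector cells, against -4.25 and -4.42 in empty vector cells. All 4 arrays were well above background, and the gene was 3.48-fold higher (log2 fold change 1.80 ± 0.10, 95% interval 1.51 to 2.09, adjusted p = 0.0277). With normexp it had 0.87 (adjusted p = 0.000998). Kcnmb4, which encodes a BK subunit best known from neurons, was at 0.56 and 0.51 in MAX vector cells, against 0.79 and 0.90 in empty vector cells (-0.31 ± 0.09, adjusted p = 0.257). The differences of these BK subunit genes thus had opposite signs, and that of Kcnmb4 did not pass. Kcnmb1, also a BK subunit gene, was well above background on none of the 4 arrays.

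Kcnip4, which encodes a calcium-binding partner of A-type channels, was at -1.53 and -1.60 in MAX vector cells, against -2.41 and -2.41 in empty vector cells. Its log2 fold change of 0.84 ± 0.09 missed the threshold (adjusted p = 0.0575) and passed with normexp, at 0.55 (adjusted p = 0.0246). Kcnd3, the tested pore gene of the A-type family that Kcnip4 serves, was at -3.95 and -3.51 in MAX vector cells, against -3.57 and -3.31 in empty vector cells, and its groups overlapped. Kcnip3 (-0.13 ± 0.12), Kcnab3 (0.06 ± 0.17), Kcne1 (-0.06 ± 0.37) and Kcne2 (0.29 ± 0.15) did not pass. Kcne3 was at -7.90 and -4.91 in MAX vector cells, against -3.50 and -8.37 in empty vector cells, a spread within each group that leaves its fold change without use.

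**Figure D3:**
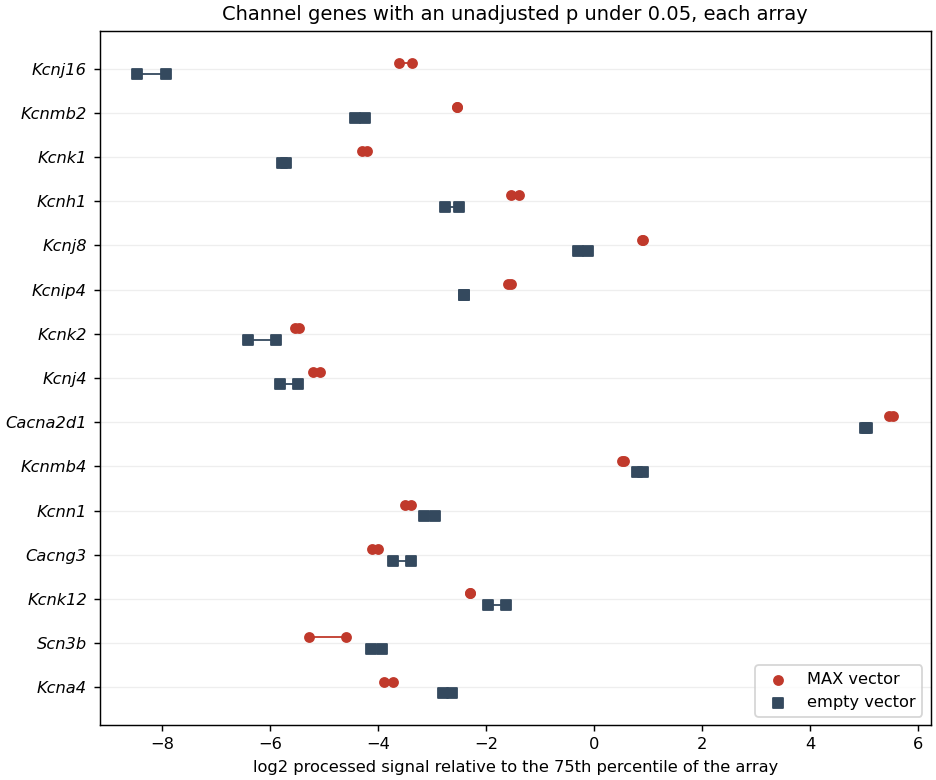
Log2 processed signal relative to the 75th percentile of the array (x axis) for 15 of the 17 channel genes with an unadjusted p under 0.05, with red circles for the 2 MAX vector arrays and dark squares for the 2 empty vector arrays, ordered down the page by log2 fold change. Kcnj16 at the top lies near -3.5 in MAX vector cells and below -7.9 in empty vector cells, and Kcna4 at the bottom lies lower in MAX vector cells.

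The promoters of Kcnj16 and Kcnmb2, which rose, and of Kcna4, the channel gene with the lowest fold change, are shown because MAX dimers are known to bind the E-box CACGTG. These are 3 of 10 channel genes with an unadjusted p under 0.05 that had a promoter entry. Kcnk1, the other gene that rose, is not shown. The sequences are those of RefSeq, build GRCr8, from 250 bases before to 50 bases after the start of the gene, and capitals mark matches to the general E-box CANNTG, which reads the same on both strands. Kcnj16 lies at chr10:96517074-96517373 on the + strand, Kcnmb2 at chr2:116599049-116599348 on the + strand and Kcna4 at chr3:114215086-114215385 on the + strand.
Kcnj16: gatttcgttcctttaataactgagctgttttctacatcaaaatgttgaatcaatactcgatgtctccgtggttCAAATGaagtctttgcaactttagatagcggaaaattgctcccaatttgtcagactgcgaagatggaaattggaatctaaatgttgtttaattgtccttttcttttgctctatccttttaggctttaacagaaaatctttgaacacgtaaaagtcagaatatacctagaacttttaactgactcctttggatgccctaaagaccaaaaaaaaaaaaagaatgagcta
Kcnmb2: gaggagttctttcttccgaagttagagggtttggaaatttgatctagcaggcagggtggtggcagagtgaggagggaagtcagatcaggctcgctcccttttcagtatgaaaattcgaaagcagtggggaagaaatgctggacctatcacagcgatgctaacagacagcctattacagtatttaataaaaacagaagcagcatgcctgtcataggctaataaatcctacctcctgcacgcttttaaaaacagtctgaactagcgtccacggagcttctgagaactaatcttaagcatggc
Kcna4: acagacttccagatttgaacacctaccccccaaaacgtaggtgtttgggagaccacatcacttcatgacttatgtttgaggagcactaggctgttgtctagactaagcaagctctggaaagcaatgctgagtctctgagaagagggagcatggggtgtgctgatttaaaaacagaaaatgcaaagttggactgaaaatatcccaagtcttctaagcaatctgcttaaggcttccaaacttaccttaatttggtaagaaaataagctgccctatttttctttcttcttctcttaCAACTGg
None of the 3 windows held CACGTG, which 6.65% of all 27457 promoters of that length held. Nor did any hold CACGCG on either strand, a variant site of MYC and MAX dimers that 9.06% held. Since most promoters lack these sites, their absence from 3 windows does not set these genes apart. CANNTG, which also takes in every CACGTG, stood 1 time in Kcnj16, 0 times in Kcnmb2 and 1 time in Kcna4, and at least 1 match was found in 71.6% of all promoters. The GC content was 34.0% in Kcnj16, 45.3% in Kcnmb2 and 41.7% in Kcna4, against a median of 52.3% over all promoters. Only 31 of the 54 tested channel genes had an entry, too few for a share over the channel genes.

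Of 5 tested pore-forming subunits of calcium channels, 0 passed in limma at an adjusted p of 0.05, and 0 had an unadjusted p under 0.05. Cacna1b, which encodes the N-type pore that couples calcium entry to transmitter release, was at -3.14 and -3.04 in MAX vector cells, against -2.73 and -2.90 in empty vector cells (-0.28 ± 0.11, adjusted p = 0.349). Cacna1c, which encodes an L-type pore, was at -1.69 and -1.64 in MAX vector cells, against -1.99 and -1.74 in empty vector cells (0.20 ± 0.12, adjusted p = 0.507). Cacna1a, the P/Q-type gene, was at -5.46 and -5.48 in MAX vector cells, against -5.41 and -5.62 in empty vector cells, with a 95% interval of -0.27 to 0.35 for the difference. Cacna1g, a T-type gene, was at -5.37 and -5.37 in MAX vector cells, against -5.46 and -5.39 in empty vector cells, with an interval of -0.19 to 0.30. Cacna1e, the R-type gene, had an interval of -0.45 to 0.45 by its brightest probe. Its other tested probe, well above background on 2 arrays, differed by -0.74 ± 0.72. The intervals of these 5 genes stayed within 1 of 0 on the log2 scale, which is less than a doubling either way for the probes used. Cacna1a, Cacna1g and Cacna1e lay close to -5.65, the dimmest signal well above background on MAX vector replicate 1, which limits what their intervals show. Cacna1d and Cacna1h had no named probe.

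Of 6 tested auxiliary subunits of calcium channels, 0 passed in limma, while 1 was higher and 1 lower at an unadjusted p under 0.05. Cacna2d1 encodes an extracellular subunit that brings calcium channels to the membrane and binds the drug gabapentin. It was at 5.53 and 5.45 in MAX vector cells, against 5.02 and 5.05 in empty vector cells (0.46 ± 0.09, adjusted p = 0.145), and the groups did not overlap. Cacnb3, which encodes a cytoplasmic subunit, was at 4.28 and 4.29 in MAX vector cells, against 4.33 and 4.46 in empty vector cells, with a 95% interval of -0.38 to 0.16 for the difference. Cacnb1 differed by 0.15 ± 0.20 and Cacnb2 by 0.02 ± 0.27. Cacng3, a gene of the gamma family whose product regulates AMPA-type glutamate receptors, was at -4.10 and -4.01 in MAX vector cells, against -3.40 and -3.72 in empty vector cells (-0.50 ± 0.15, adjusted p = 0.251).

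Of 5 tested pore subunits of sodium channels, 0 passed in limma, also at an unadjusted p under 0.05 (0 genes). Scn2a, which encodes a neuronal channel, was at -5.83 and -5.18 in MAX vector cells, where 1 of 2 arrays was well above background, against -4.54 and -4.93 in empty vector cells (-0.77 ± 0.28, adjusted p = 0.317). Scn8a was at -4.43 and -3.92 in MAX vector cells, against -4.02 and -4.60 in empty vector cells, and Scn1a was at -4.31 and -3.42 in MAX vector cells, against -4.25 and -4.25 in empty vector cells. The groups overlapped for both. Scn10a, known from sensory neurons, also had overlapping groups.

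Scn3b and Scn4b encode beta subunits of sodium channels, which set gating and cell adhesion. Both had lower values in MAX vector cells with no overlap, and neither passed. Scn3b was at -5.28 and -4.60 in MAX vector cells, against -3.93 and -4.12 in empty vector cells (-0.92 ± 0.27, adjusted p = 0.247). Scn4b was at -4.13 and -4.10 in MAX vector cells, against -3.93 and -4.08 in empty vector cells (-0.11 ± 0.10, adjusted p = 0.638). With normexp Scn3b had -0.30 and did not pass. Groups that do not overlap with lower values made up 26.0% of all genes.

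The remaining 55 named channel genes lay below the background filter: 43 were well above background on no array and 12 on 1 array. They included Kcna1, Kcna2, Kcnc1, Kcnd2, Kcnj11, Kcnn2, Cacna2d2, Scn3a and Scn9a. Kcna2 encodes a channel described as oxygen-sensitive in PC12 cells, and its probe was at -7.66 and -7.96 in MAX vector cells, against -7.28 and -5.92 in empty vector cells. Scn9a, which nerve growth factor is known to induce in PC12 cells, was at -7.49 and -6.12 in MAX vector cells, against -8.49 and -8.03 in empty vector cells. Values this low carry no order. Scn3a was at -7.96 and -6.82 in MAX vector cells, against -2.57 and -7.48 in empty vector cells, a signal of 1 array. By detection the tested channel genes were also dimmer as a set: 40 of 54, or 74.1%, were well above background on all 4 arrays, against 90.0% of all genes tested.

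Genes that work with these channels are given beside all genes tested, of which 0.84% passed and 16.1% had an unadjusted p under 0.05 in limma. No list was tested as a set. Among 21 tested partner proteins of channels (of 45 listed), 0 passed in limma, with 3 higher and 2 lower at an unadjusted p under 0.05 and a median of -0.18, against -0.02 over all genes. Fgf13, which encodes a sodium channel-binding factor, was at -4.42 and -4.81 in MAX vector cells, against -5.58 and -6.18 in empty vector cells (1.26 ± 0.27, adjusted p = 0.167). Hcn4, a pacemaker channel gene, was at -3.13 and -3.18 in MAX vector cells, against -2.62 and -2.77 in empty vector cells (-0.46 ± 0.10, adjusted p = 0.172). Rest, which encodes the repressor of neuronal genes such as Scn2a, had 0.08 ± 0.14. Of 9 tested genes of calcium stores and pumps 0 passed (2 higher at an unadjusted p under 0.05, median 0.07), and of 9 tested sodium-potassium pump genes 0 passed (3 higher and 3 lower at an unadjusted p under 0.05, median -0.15). Fxyd6, a modulator of that pump, had -0.98 ± 0.11 (adjusted p = 0.0686). Of 15 other cation and chloride channel genes 1 rose: Clcn4, which encodes an intracellular chloride-proton exchanger, was at -3.41 and -3.56 in MAX vector cells, against -5.64 and -5.27 in empty vector cells (1.97 ± 0.17, adjusted p = 0.0437). The other 14 did not pass, and the median of that list was 0.03.

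The calls changed with the fit and with the arrays used. MAX vector replicate 1 was the only array on slide 2, so the fit with the slide as a block is the fit without that array, and the log2 fold changes there were 4.83 for Kcnj16, 1.79 for Kcnmb2 and 1.53 for Kcnk1, with adjusted p values of 0.0694, 0.0878 and 0.0849. With the replicate number as a block 0 channel genes passed in limma, with 16 at an unadjusted p under 0.05. Without empty vector replicate 1 or replicate 2, 0 passed, with 11 and 12 at an unadjusted p under 0.05. Without MAX vector replicate 2, Kcnj16 passed (adjusted p = 0.049). The sign of these 3 genes was the same in each of these fits.

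**Figure D4:**
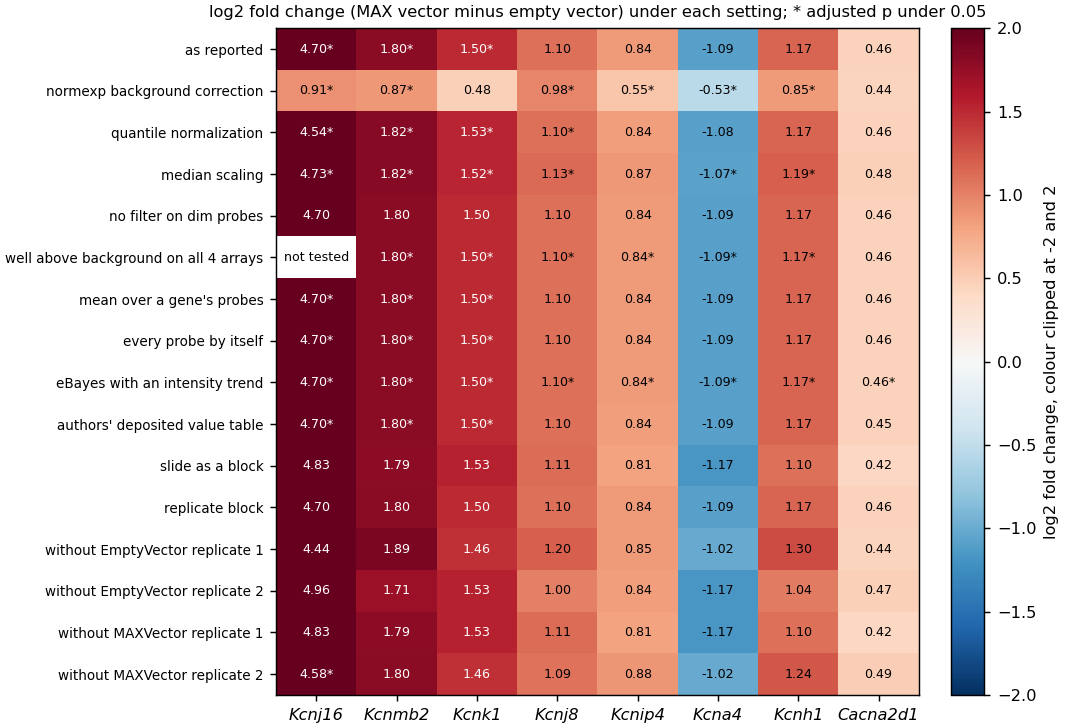
Log2 fold change (MAX vector minus empty vector, colour and number) of the 8 channel genes with the lowest p, under the reported setting and each alternative down the page, with * for an adjusted p under 0.05. Kcnj16 has 4.70 as reported and 0.91 with normexp, and the signs of the 8 genes are the same in every row.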

How the data were processed

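Total RNA of 4 PC12 cultures was hybridised to 4 Agilent rat arrays. Per the file headers, the deposited files hold spot intensity from Feature Extraction 10.7.3.1 (10.7 per the submitters' processing notes), on a design annotated with build rn4, with the processed intensity background-subtracted within an array and not scaled between arrays. The authors' deposited value table holds log2 values: differences between its columns matched those of the values used here (Pearson r = 1 over 40923 probes), while the baseline each probe is centred on stays unknown; its column medians were -0.0054 and -0.0065 for MAX vector and -0.033 and -0.011 for empty vector. After leaving out control and outlier-flagged spots, replicate spots were averaged on the log2 scale and values set relative to the 75th percentile of their array. Probes well above background on at least 2 arrays entered, 1 per gene, that with the highest mean. Symbols came from RefSeq accessions in a table built on GRCr8, which named 10737 of 40923 probes. The comparison was a two-sided limma fit (version 3.58.1, R 4.3.3) over all 25356 genes, adjusted by Benjamini-Hochberg and called at 0.05.

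The channel genes, the gene lists and the rule for named genes (every member that passed or had an unadjusted p under 0.05, those well above background in 1 group alone, the member with the highest signal of each family, and fixed members of known role in excitable cells) were chosen with earlier results of these data known; others named were chosen after their values were seen, and 5 tested channel genes, 2 of them with an unadjusted p under 0.05, enter the counts but are not reported here by name. When changes were simulated on 25356 genes, 3.58% of 2-fold, 68.4% of 4-fold and 92.1% of 16-fold changes were recovered. Recovery among dim genes by themselves was not tested. Normexp used the median spot signal. The number of arrays limits the precision.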

Additional observations from a re-analysis of the deposited data

Results flagged for a closer look

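Probes of channel genes that the comparison did not use held 6 signals above the empty vector arrays. Of 12 genes below the filter with 1 array well above background, 5 had it in MAX vector cells and 7 in empty vector cells. Over all probes, 64.5% and 69.6% were well above background on the MAX vector arrays and 71.6% and 68.9% on the empty vector arrays. The counts of 5 and 7 therefore give no direction for the dim genes. The second probe of Kcnj3 had a log2 fold change of 1.88 where the probe used had -0.18. Dim probes were well above background on 1 MAX vector array and on no empty vector array for Kcna5 (-5.31 on MAX vector replicate 1), Scn4a (-4.48 on MAX vector replicate 1), Kcnd2 (-5.82 on MAX vector replicate 2), Kcnj9 (-5.96 on MAX vector replicate 2) and Kcns1 (-4.45 on MAX vector replicate 2). Each of these 5 signals rests on 1 array and was not tested. Groups of 2 arrays are too small for a test of outlying samples.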

How the results depend on the processing

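A total of 15 alternatives was run. Of 461 recomputed fold changes of the 31 named and tested channel genes, 410 kept their direction and their side of the threshold, 21 lost a call, 17 gained one and 13 changed sign; none of the 3 genes that passed changed sign under any alternative. The count of channel genes called higher, 3 as reported, was 5 with normexp, 5 with median scaling, 5 with probes well above background on all 4 arrays, 7 with an intensity trend, and 0 in 3 other fits: no filter on dim probes (23 of 109 at an unadjusted p under 0.05), the slide block (17) and the replicate block (16). The count called lower, 0 as reported (8 at an unadjusted p under 0.05), was 1 with normexp, with median scaling, with all 4 arrays and with the trend, and that gene was Kcna4. Leaving out 1 array gave 0 to 1 called higher. The median log2 fold change, -0.05 as reported, was 0.13 with no filter and 0.16 under the slide block, and -0.13 to 0.16 when 1 array was left out. Over all genes 213 passed as reported (146 higher, 67 lower), against 794 with normexp, 541 with median scaling, 515 with all 4 arrays, 955 with the trend, 293 with quantile normalization, and 8 under the slide block. The share of higher calls was 68.5% as reported and 54.0% with normexp. With no filter, with the replicate block, and without either empty vector array, 0 genes passed in limma, with 4033, 3885, 1963 and 2456 at an unadjusted p under 0.05. The labels do not say which replicate number is which passage, and pairing by number was not shown: deviations of equally numbered arrays from their group means correlated at -0.018 over 25356 genes.

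The sign changes were in genes that did not pass. With normexp they were Cacna1a (-0.016), Cacna1g (-0.025), Kcnh2 (-0.015) and Kcnma1 (0.11). With the mean over a gene's probes it was Kcnj3 (0.85). With 1 array left out, values ranged from -0.062 to 0.145 for Cacna1a, -0.092 to 0.402 for Cacnb1, -0.263 to 0.415 for Kcnh2, -2.18 to 1.93 for Kcnma1 (0.147 without empty vector replicate 2), -0.060 to 0.834 for Scn1a and -0.162 to 0.425 for Scn8a (-0.123 without MAX vector replicate 2). The cause was not tested. Signal over background limits these values: 14 of the 54 tested channel genes were well above background on fewer than 4 arrays.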
